A study of Mus musculus with 10 samples.

Results

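The 7 class 3 semaphorins of the mouse (*Sema3a* to *Sema3g*), the neuropilins *Nrp1* and *Nrp2* and the plexin *Plxnd1* were examined in RNA-seq of whole embryonic kidneys at E13.5. The 10 genes were chosen by family and by symbol, with no limit on any measured value. They were listed when values of these libraries were already known, so their p-values describe the libraries and are not independent evidence. All 10 were found, each on 1 of the 35663 entries of the deposited table, and all 10 passed the filter on low values in each of the 3 comparisons. The study asked what the loss of netrin 1 (*Ntn1*) from kidney stroma does to the developing kidney and its vessels. All embryos were of the C57/b6 strain. The 4 wild-type libraries carried no engineered allele by their label. The 3 *Foxd1GC* control libraries, labelled Foxd1-Cre, carried a Cre allele at the *Foxd1* locus, which acts in stromal progenitors and their descendants. The 3 *Ntn1SPKO* libraries, labelled Foxd1-Cre; Ntn1c/c, carried the same Cre allele with the conditional *Ntn1* alleles. Control and mutant kidneys thus share the Cre allele at *Foxd1*, and cells outside the stromal lineage keep *Ntn1*. The labels do not say whether each library came from a separate embryo, so p-values measure the spread between these samples, which may in part be technical.

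Class 3 semaphorins are secreted guidance proteins of vertebrates. Most of them bind a neuropilin, which holds the ligand but signals poorly by itself, and the signal enters the cell through a plexin whose cytoplasmic part acts on small GTPases and on the cytoskeleton. Sema3e is the exception in that it binds Plxnd1 directly. The family repels growing axons and endothelial cells, and neuropilins also serve as co-receptors for VEGF, which ties the family to vessel growth. In the kidney, Sema3a is known as a brake on ureteric branching and as a signal that shapes glomerular vessels.

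The values were FPKM, the authors' estimate of abundance per length of coding sequence, so that levels of different genes can be compared per length. The libraries were already on a common median-of-ratios scale. Spacing of the lowest values put the depth of the libraries, as scaled in this way, roughly at 27.8 to 33.2 M fragments. *Ntn1* was at 16.3, 13.1 and 10.7 FPKM in the 3 *Ntn1SPKO* libraries, below all 7 other libraries, which spanned 24.2 to 51.4 FPKM. Y-linked transcripts were present in all 3 *Ntn1SPKO* libraries, in *Foxd1GC* control replicate 2 and in wild-type replicate 3, so embryo sex is unevenly spread over the groups. *Foxd1GC* control replicate 3 stood apart. Its 10 skeletal muscle markers summed to 943 FPKM, where the other 9 libraries had 18.8 to 213 FPKM, and its 7 ureteric bud markers summed to 68.5 FPKM, where the others had 167 to 206 FPKM. The defining markers of the kidney lineages were present in every library, with 650 to 705 FPKM over 6 stromal markers and 254 to 321 FPKM over 6 nephron progenitor markers in wild-type kidneys.

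*Plxnd1* and *Nrp1* were the most abundant members (Plxnd1 is the endothelial receptor of Sema3e, Nrp1 the co-receptor of Sema3a and VEGF). The mean over the 10 libraries was 71.5 FPKM for *Plxnd1* and 52.6 FPKM for *Nrp1*, which placed them at percentiles 93.3 and 90.5 of the 23752 entries above 0 in at least 1 library. Then came 4 ligands, with means of 41.9 FPKM for *Sema3c*, 34.2 FPKM for *Sema3f*, 28.4 FPKM for *Sema3d* and 21.2 FPKM for *Sema3a*. The other 4 members were at lower levels, with 6.83 FPKM for *Nrp2*, 4.32 FPKM for *Sema3b*, 1.41 FPKM for *Sema3g* and 0.675 FPKM for *Sema3e*. Neighbours in this order overlapped in their range over the 10 libraries, except that *Nrp2* lay wholly below *Sema3a* and *Sema3g* wholly below *Sema3b*. Within a library, *Sema3a* was below *Sema3d* in 10 of 10 libraries, and *Sema3e* was below *Sema3g* in 10 of 10. The rough depth puts 34 to 68 fragments behind a value of *Sema3e* and 988 to 1956 behind a value of *Sema3a*, so that counting error alone is about 17.1% for the lowest *Sema3e* value and 3.18% for the lowest *Sema3a* value.

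**Figure D1:**
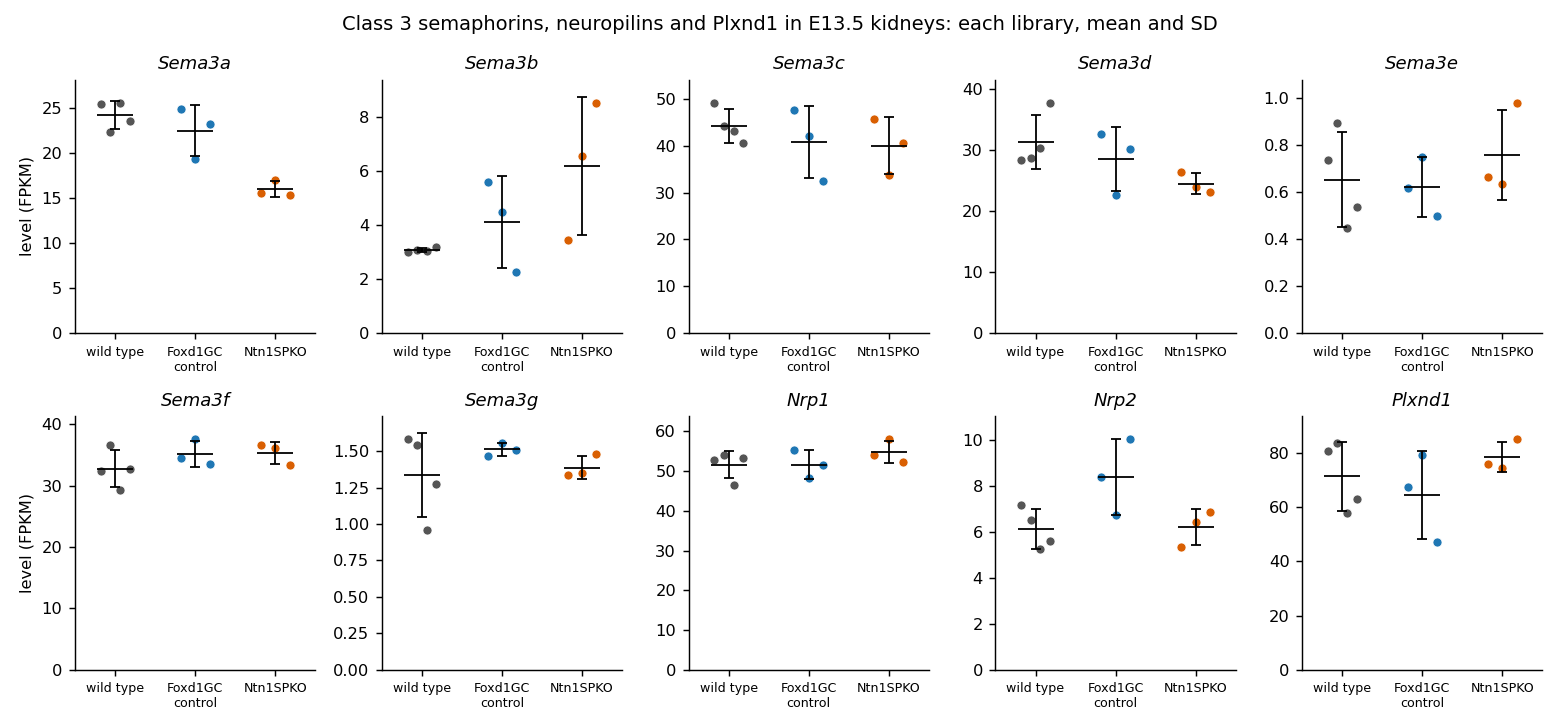
Level of each of the 10 members in FPKM (vertical axis from 0, a separate scale for each gene) in the 4 wild-type, 3 *Foxd1GC* control and 3 *Ntn1SPKO* libraries. Points are libraries, the horizontal bar is the mean and the whiskers are the SD. The 3 *Ntn1SPKO* libraries lie at 15.4 to 16.98 FPKM for *Sema3a*, below the other 7 at 19.4 to 25.6 FPKM.

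No member passed both of the study's limits, a change of 2-fold or more and an adjusted p below 0.1, in any of the 3 comparisons. *Ntn1*, the deleted gene, did not pass them either. Its log2 difference in *Ntn1SPKO* kidneys was −1.48 against control (limma adjusted p=0.447) and −1.30 against wild-type kidneys (limma adjusted p=0.14). A member that was not called is therefore not shown to be unchanged. Between *Ntn1SPKO* and *Foxd1GC* control kidneys, 0 of 10 members were called by limma (0.055% of 14550 genes were), and 0 of 10 had an adjusted p under 0.1 at any fold (0.0687% of all genes). *Sema3a* and *Nrp2* had an unadjusted p under 0.05, 2 of 10 members against 10.7% of all genes. Groups did not overlap for *Sema3a*, which was lower (8.91% of all genes were lower without overlap), and for no member that was higher (11.0% of all genes). Against wild-type kidneys, 0 of 10 members were called in *Ntn1SPKO* kidneys (0.0485% of 14432 genes), and *Sema3a* was the member with an adjusted p under 0.1 at any fold (0.0693% of all genes). *Sema3a*, *Sema3d* and *Sema3b* had an unadjusted p under 0.05, 3 of 10 members against 5.76% of all genes. *Sema3a* and *Sema3d* were lower without overlap (3.54% of all genes), and *Sema3b* was higher without overlap (3.56% of all genes). Between *Foxd1GC* control and wild-type kidneys, 0 of 10 members were called or had an adjusted p under 0.1 (0.00685% of 14594 genes), *Nrp2* had an unadjusted p under 0.05 (7.06% of all genes), and no member was lower or higher without overlap (4.04% of all genes in each direction).

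Members were found on both sides of 0 in each comparison. The median log2 difference over the 10 members was −0.005 between *Ntn1SPKO* and control kidneys, where the median of all genes was 0.007, with 5 members lower and 5 higher. It was 0.079 between *Ntn1SPKO* and wild-type kidneys (all genes 0.003), with 3 lower and 7 higher, and −0.019 between control and wild-type kidneys (all genes −0.007), with 5 lower and 5 higher. The comparisons share libraries, so their values are given side by side and are not independent of each other.

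**Figure D2:**
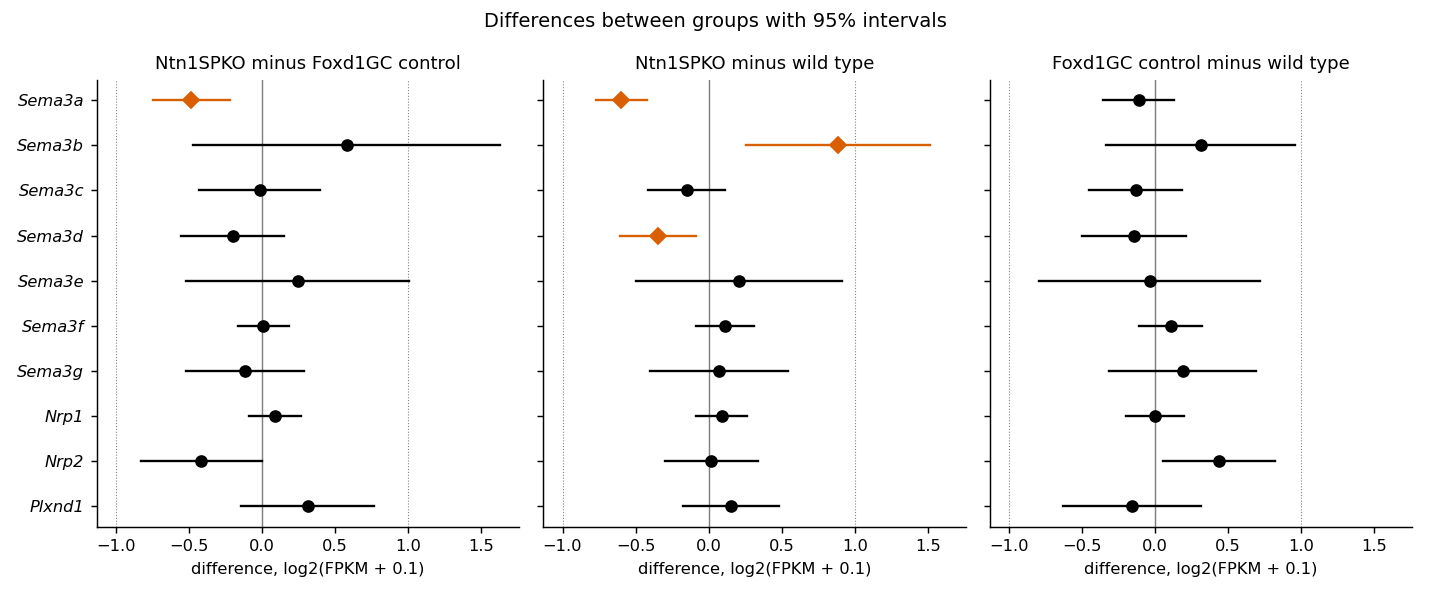
Difference between group means of log2(FPKM + 0.1) for each member (horizontal axis, log2 units) in the 3 comparisons. Points are limma estimates, lines are 95% intervals, orange diamonds are members whose groups do not overlap, and dotted lines mark a 2-fold change. *Sema3a* lies at −0.48 and −0.60 in the comparisons with *Ntn1SPKO* kidneys, and no interval of *Nrp1* or *Sema3f* reaches a 2-fold change.

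*Sema3a*, the founding member of the class, had the lowest p of the 10 members in both comparisons with *Ntn1SPKO* kidneys. It was at 25.5, 22.3, 25.6 and 23.6 FPKM in wild-type replicates 1 to 4, at 24.9, 19.4 and 23.2 FPKM in *Foxd1GC* control replicates 1 to 3, and at 15.6, 16.98 and 15.4 FPKM in *Ntn1SPKO* replicates 1 to 3. Every *Ntn1SPKO* library was below every other library, a count made after the values were seen, which held for 1 of 10 members and for 225 of 14534 genes (1.55%). The mean was 24.2 ± 1.57 FPKM (SD, n=4) in wild-type and 16.0 ± 0.874 FPKM (n=3) in *Ntn1SPKO* kidneys, a log2 difference of −0.60 (95% interval −0.77 to −0.42, limma adjusted p=0.0973 over all genes). Against the *Foxd1GC* control mean of 22.5 ± 2.85 FPKM (n=3) the log2 difference was −0.48 (95% interval −0.75 to −0.22), with a limma adjusted p of 0.447. These log2 differences amount to −33.9% against wild-type and −28.5% against control kidneys, and 5.93% and 12.7% of all genes moved by as much or more in either direction. The exact two-sided permutation p was 0.0571 against wild-type and 0.1 against control kidneys, the smallest that 3 libraries against 4 and 3 against 3 allow. Control and wild-type kidneys differed by −0.11 (95% interval −0.36 to 0.13, limma adjusted p=0.741).

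The adjusted p of *Sema3a* against wild-type kidneys stayed below 0.1 without wild-type replicate 3 (limma adjusted p=0.075) and lay between 0.116 and 0.269 without any other library. Against control kidneys it was 0.0926 without *Foxd1GC* control replicate 2, the control library with Y-linked transcripts and the lowest control value of *Sema3a*, with a log2 difference of −0.59. The other libraries with Y-linked transcripts outside the mutant group were at 25.6 FPKM (wild type) and 19.4 FPKM (control), both above the 3 *Ntn1SPKO* libraries. When sex entered the model, the log2 difference was −0.28 against control (limma adjusted p=1) and −0.68 against wild-type kidneys (limma adjusted p=0.0114). Because every *Ntn1SPKO* library has Y-linked transcripts, each of these estimates rests on the only library of the other group that has them.

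*Foxd1*, the transcription factor that marks stromal progenitors, had its lowest group mean in *Ntn1SPKO* kidneys as *Sema3a* did. It was at 24.1, 21.3, 21.4 and 30.7 FPKM in wild-type, 19.6, 14.7 and 25.6 FPKM in control and 14.3, 15.4 and 14.2 FPKM in *Ntn1SPKO* libraries. The ratio of *Sema3a* to *Foxd1* was 1.08 to 1.103 in *Ntn1SPKO* libraries, within the 0.769 to 1.19 of wild-type and the 0.908 to 1.32 of control libraries. The ratio of 1.32 belonged to control replicate 2, the control library with Y-linked transcripts. With sex in the model, the log2 difference of *Foxd1* from control kidneys was −0.002, where that of *Sema3a* was −0.28. From wild-type kidneys they were −0.55 and −0.68. The Cre allele lies at the *Foxd1* locus itself in control and mutant kidneys. Of the 6 stromal progenitor markers 4 were lower in *Ntn1SPKO* than in control kidneys, and their summed level was 610 to 642 FPKM in *Ntn1SPKO*, 608 to 644 FPKM in control and 650 to 705 FPKM in wild-type libraries. The skeletal muscle markers also differed in the direction of *Sema3a*. Their sum was 18.8 to 73.9 FPKM in *Ntn1SPKO* libraries, below all wild-type libraries. Control replicate 2, at 62.4 FPKM, lay in the mutant range and had the lowest control value of *Sema3a*. Control replicate 3 had the highest sum, 943 FPKM, with *Sema3a* at 23.2 FPKM. Control replicate 1 had a sum of 213 FPKM, with *Sema3a* at 24.9 FPKM. The lowest wild-type sum, 112 FPKM, and the highest value of *Sema3a*, 25.6 FPKM, were both in wild-type replicate 3. Of the 10 muscle markers 9 were tested, and 9 of 9 had a lower mean in *Ntn1SPKO* kidneys, with a median log2 difference of −1.90 from wild-type and −2.53 from control kidneys. No marker of either list was at 0 in every library. The part of stromal cells and of muscle tissue in the *Sema3a* difference was not tested. In RNA from whole kidneys, fewer cells of a type and less RNA per cell cannot be told apart.

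*Sema3a* lies in a group of 4 members on chromosome 5 (GRCm38, GENCODE M21) that spans 5.35 Mb, all on the + strand. *Sema3d* (chr5:12383385-12588948) comes first, *Sema3a* (chr5:13125414-13602565) follows 536.5 kb later, *Sema3e* (chr5:14025276-14256689) another 422.7 kb later, and *Sema3c* (chr5:17574281-17730268) 3317.6 kb after that. The first pair of neighbours were the ligands that were lower in *Ntn1SPKO* than in wild-type kidneys without overlap, and *Sema3e* and *Sema3c* overlapped between groups. Promoter sequences of RefSeq (GRCm38.p6) were matched for 8 of the 10 members. The 250 bases before the RefSeq start are shown for the 3 genes at the *Sema3a* end of the group whose windows hold no annotated exon, so that a gene whose groups overlapped (*Sema3e*) can be set beside the other 2. Capitals mark a GC box (GGGCGG, either strand) or an E box (CANNTG, which reads the same on both strands). The windows lie at chr5:12382916-12383165, chr5:13396534-13396783 and chr5:14025026-14025275, each on the + strand and read 5′ to 3′.
Sema3d: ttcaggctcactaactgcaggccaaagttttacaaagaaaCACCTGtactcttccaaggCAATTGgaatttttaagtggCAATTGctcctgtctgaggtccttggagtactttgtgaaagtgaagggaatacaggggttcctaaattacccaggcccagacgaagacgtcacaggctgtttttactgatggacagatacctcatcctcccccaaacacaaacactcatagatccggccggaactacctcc
Sema3a: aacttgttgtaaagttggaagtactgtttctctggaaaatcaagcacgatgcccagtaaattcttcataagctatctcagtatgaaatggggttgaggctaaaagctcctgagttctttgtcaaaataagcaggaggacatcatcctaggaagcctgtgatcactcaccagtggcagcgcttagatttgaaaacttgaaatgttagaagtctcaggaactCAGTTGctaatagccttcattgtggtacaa
Sema3e: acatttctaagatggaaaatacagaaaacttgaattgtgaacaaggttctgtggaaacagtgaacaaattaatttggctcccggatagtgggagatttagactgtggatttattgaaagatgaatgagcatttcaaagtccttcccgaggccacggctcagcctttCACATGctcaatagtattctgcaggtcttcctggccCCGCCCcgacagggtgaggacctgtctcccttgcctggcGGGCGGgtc

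The *Sema3a* window held 1 E box match and no GC box match, that of *Sema3d* 3 E box matches and no GC box match, and that of *Sema3e* 1 E box and 2 GC box matches. Matches of the 2 motifs did not overlap each other in these windows. Among 32851 RefSeq windows of the same length, 66.2% held an E box and 32.7% a GC box. G and C made up 40.8% of the *Sema3a* window, 46.8% of the *Sema3d* window and 48.0% of the *Sema3e* window, against a median of 52.4% over all windows and 78.4% before *Sema3c*. The *Sema3a* start used here lies inside the gene span of GENCODE, in an intron of a longer transcript typed as a retained intron, and 250 bases before it therefore describe 1 of several annotated starts. The FPKM are given per gene and do not tell which start was used.

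*Sema3d*, a ligand known from the guidance of cardiac and venous endothelium, was at 28.4, 28.7, 30.3 and 37.7 FPKM in wild-type, 32.6, 22.5 and 30.1 FPKM in control and 26.4, 23.9 and 23.0 FPKM in *Ntn1SPKO* libraries. The *Ntn1SPKO* libraries were below all wild-type libraries, and control replicate 2 was below all of them. The log2 difference was −0.35 against wild-type (95% interval −0.61 to −0.09, limma adjusted p=0.686) and −0.20 against control kidneys (95% interval −0.55 to 0.15, limma adjusted p=0.534). The difference from control kidneys depended on single control libraries, with −0.36 without replicate 2 and −0.09 without replicate 1. With embryo sex as a covariate it changed sign, to 0.11.

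*Sema3b*, known as a p53-induced ligand, varied most over the 10 libraries, with an SD of 0.59 on the log2 scale. It was at 3.02, 3.08, 3.05 and 3.19 FPKM in wild-type, 5.59, 4.48 and 2.26 FPKM in control and 3.45, 6.55 and 8.53 FPKM in *Ntn1SPKO* libraries. Wild-type libraries were close together, and the spread within control and mutant kidneys was wide. All 3 *Ntn1SPKO* libraries were above all 4 wild-type libraries, with a log2 difference of 0.89 (95% interval 0.26 to 1.52, limma adjusted p=0.625), and they overlapped with the controls (log2 difference 0.58, 95% interval −0.47 to 1.63, limma adjusted p=0.55). Leaving out *Ntn1SPKO* replicate 1 raised the difference from wild-type kidneys to 1.25 with a limma adjusted p of 0.0612, the only setting among those run in which a member passed both limits. Without *Foxd1GC* control replicate 3, which held the lowest value, the difference between *Ntn1SPKO* and control kidneys was 0.21. *Sema3b* (chr9:107597674-107609229) lies 72.3 kb from *Sema3f* on chromosome 9.

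*Sema3f* (chr9:107681500-107710475), the preferred ligand of Nrp2, was the steadiest of the ligands. It ranged from 29.3 to 36.6 FPKM in wild-type, 33.5 to 37.5 FPKM in control and 33.3 to 36.6 FPKM in *Ntn1SPKO* libraries. The difference between *Ntn1SPKO* and control kidneys was 0.01 on the log2 scale, with a 95% interval of −0.17 to 0.18. *Sema3c*, the most abundant ligand, acts in the septation of the cardiac outflow tract. It ranged from 40.5 to 49.2 FPKM, from 32.5 to 47.6 FPKM and from 33.8 to 45.8 FPKM in the same groups, and the 95% interval of the difference between *Ntn1SPKO* and control kidneys was −0.43 to 0.39. The low value of 32.5 FPKM belonged to *Foxd1GC* control replicate 3.

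The scarce ligands overlapped between *Ntn1SPKO* and control libraries. *Sema3g*, a ligand of Nrp2 made by endothelium, was at 0.960 to 1.58 FPKM in wild-type, 1.47 to 1.56 FPKM in control and 1.33 to 1.48 FPKM in *Ntn1SPKO* libraries. *Sema3e*, the direct ligand of Plxnd1, was at 0.446 to 0.894 FPKM, 0.496 to 0.750 FPKM and 0.633 to 0.979 FPKM. Their 95% intervals between *Ntn1SPKO* and control kidneys were −0.52 to 0.29 and −0.52 to 1.0052 on the log2 scale, and the latter includes a 2-fold increase.

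By share of the summed FPKM of the 7 ligands, *Sema3a* made up 16.3% to 19.3% in wild-type, 15.1% to 18.8% in control and 12.01% to 14.2% in *Ntn1SPKO* libraries. The *Ntn1SPKO* shares lay below all others. *Sema3c* had the largest share in 8 of 10 libraries and *Sema3f* in *Foxd1GC* control replicate 3 and *Ntn1SPKO* replicate 2. *Sema3f* held 22.1% to 26.7% in wild-type, 23.4% to 29.2% in control and 27.0% to 30.3% in *Ntn1SPKO* libraries, above all wild-type libraries and overlapping with the controls. Shares add up to a whole, so a lower share of *Sema3a* raises the others, and the level of *Sema3f* itself overlapped between groups. The sum over the 7 ligands was 133 to 141 FPKM in wild-type, 124 to 147 FPKM in control and 119 to 130 FPKM in *Ntn1SPKO* libraries.

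**Figure D3:**
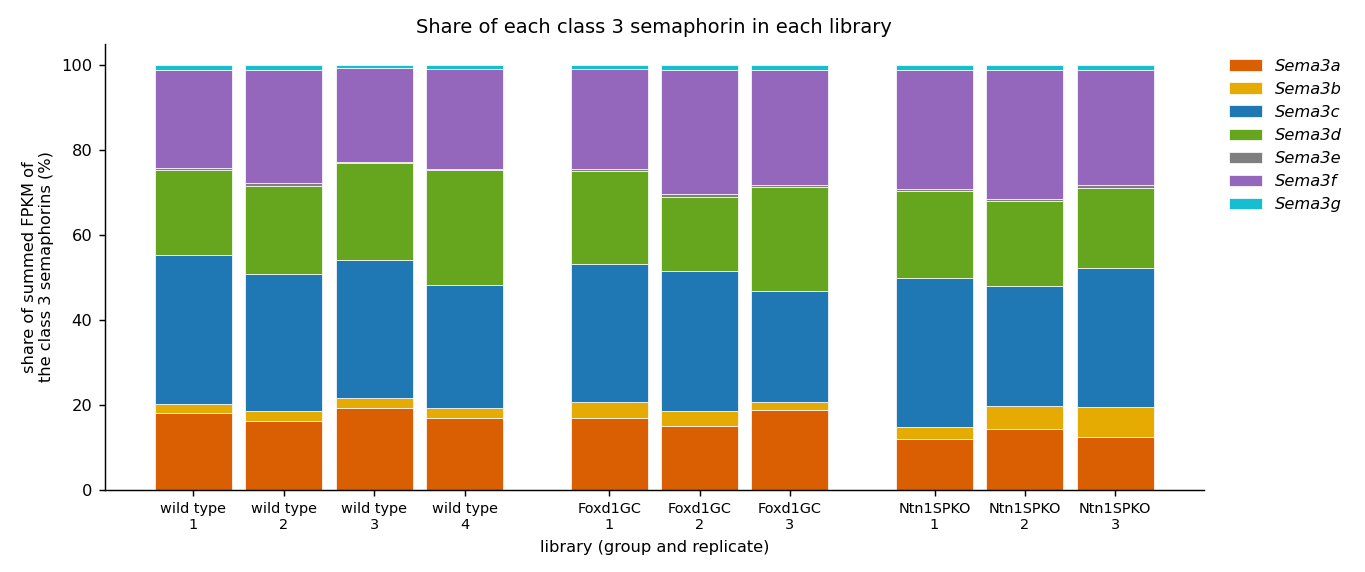
Share of each class 3 semaphorin in the summed FPKM of the 7 (vertical axis, percent) in each of the 10 libraries. Each bar is a library and each colour a ligand. The bottom segment, *Sema3a*, is 12.01% to 14.2% in the 3 *Ntn1SPKO* libraries and 15.1% to 19.3% in the other 7.

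Of the receptors, *Nrp1* (chr8:128358604-128503363) was the steadiest member. It was at 52.8, 54.0, 46.5 and 53.2 FPKM in wild-type, 55.3, 48.2 and 51.5 FPKM in control and 54.2, 58.0 and 52.4 FPKM in *Ntn1SPKO* libraries. The log2 difference between *Ntn1SPKO* and control kidneys was 0.09 (95% interval −0.09 to 0.27) and that between control and wild-type kidneys was 0.0005 (95% interval −0.20 to 0.20). Nrp1 is made by arterial endothelium and by other cells of the kidney. The 8 endothelial markers summed to 159 to 196 FPKM in wild-type, 205 to 226 FPKM in control and 190 to 216 FPKM in *Ntn1SPKO* libraries. Of these markers 8 of 8 were higher in control than in wild-type kidneys, with a median log2 difference of 0.22, and 5 of 8 were higher in *Ntn1SPKO* than in control kidneys, with a median of 0.01.

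*Nrp2* (chr1:62703285-62818695), the neuropilin of veins and lymphatic vessels, had an unadjusted p under 0.05 in both comparisons with *Foxd1GC* control kidneys. It was at 7.17, 6.50, 5.26 and 5.62 FPKM in wild-type, 8.39, 6.75 and 10.02 FPKM in control and 5.33, 6.41 and 6.87 FPKM in *Ntn1SPKO* libraries. Control replicates 1 and 3 were above all other libraries, and replicate 2 lay within their range. The log2 difference was 0.44 between control and wild-type kidneys (95% interval 0.05 to 0.82, limma adjusted p=0.665) and −0.42 between *Ntn1SPKO* and control kidneys (95% interval −0.83 to −0.0038, limma adjusted p=0.447). Without control replicate 3 these were 0.30 and −0.28. With sex in the model they were 0.47 and −0.13 (limma adjusted p=0.436 and 1). The difference between *Ntn1SPKO* and wild-type kidneys was 0.02 (95% interval −0.30 to 0.34). The ratio of *Nrp1* to *Nrp2* was 5.14 to 7.13 in control libraries, below the 7.37 to 9.47 of wild-type and the 7.63 to 10.16 of *Ntn1SPKO* libraries, a description made after the values were seen and with no test.

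*Plxnd1* (chr6:115954811-115995005, − strand) was at 80.8, 83.8, 57.9 and 63.0 FPKM in wild-type, 67.4, 79.3 and 47.0 FPKM in control and 75.9, 74.5 and 84.96 FPKM in *Ntn1SPKO* libraries. The groups overlapped in every comparison. The log2 difference between *Ntn1SPKO* and control kidneys was 0.31 (95% interval −0.14 to 0.76, limma adjusted p=0.483), and without control replicate 3, the library with the lowest value, it was 0.10. With embryo sex as a covariate it was −0.02. Set against *Cdh5*, the cadherin of endothelial junctions, the ratio of *Plxnd1* was 1.67 to 1.90 in wild-type, 1.03 to 1.59 in control and 1.46 to 1.81 in *Ntn1SPKO* libraries, so that control libraries were below all wild-type libraries while *Ntn1SPKO* libraries overlapped with both. Set against *Pecam1*, another endothelial adhesion gene, control libraries at 1.41 to 2.47 overlapped with wild-type libraries at 2.34 to 2.99, and *Ntn1SPKO* libraries were at 2.26 to 2.62, so the separation of control from wild-type libraries was not seen with both markers.

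**Figure D4:**
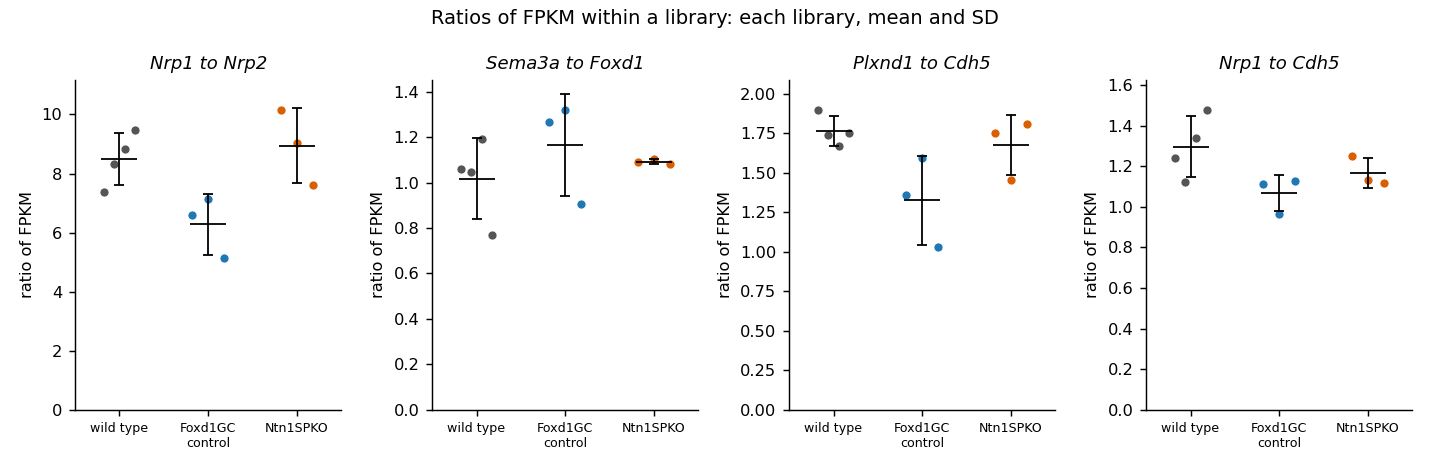
Ratio of FPKM of a pair of genes within a library (vertical axis from 0, a separate scale for each pair) by group. Points are libraries, the horizontal bar is the mean and the whiskers are the SD. The ratio of *Nrp1* to *Nrp2* is 5.14 to 7.13 in the 3 *Foxd1GC* control libraries and 7.37 to 10.16 in the other 7, and the ratio of *Sema3a* to *Foxd1* overlaps between all groups.

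Other genes of the pathway were taken from 4 lists of general knowledge. None of them was called by limma in any of the 3 comparisons, with 13 of 13 other semaphorins, 7 of 8 other plexins, 19 of 20 co-receptors and intracellular mediators and 8 of 8 VEGF ligands and receptors tested in each. Between *Ntn1SPKO* and control kidneys 1, 0, 2 and 0 genes of these lists had an unadjusted p under 0.05, where 10.7% of all genes did. Between *Ntn1SPKO* and wild-type kidneys there were 1, 1, 0 and 2 (5.76% of all genes), and between control and wild-type kidneys 1, 0, 1 and 1 (7.06% of all genes). List medians ran from −0.08 to 0.17 on the log2 scale over the 3 comparisons.

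Among the semaphorins outside the class, *Sema7a*, which is anchored in the membrane and binds Plxnc1, was at 1.04, 1.49 and 1.32 FPKM in *Ntn1SPKO* and 1.81, 1.77 and 1.95 FPKM in control libraries, with a log2 difference of −0.50 (limma adjusted p=0.447). Its wild-type libraries, at 1.17 to 1.70 FPKM, overlapped with the mutant ones. *Plxnc1*, its receptor, was at 3.35, 3.03 and 3.22 FPKM in *Ntn1SPKO* libraries and at 3.63 to 4.76 FPKM in wild-type libraries (log2 difference −0.32, limma adjusted p=0.769), with control replicate 2 at 3.32 FPKM within the mutant range. *Sema5b*, a transmembrane semaphorin, was at 2.27, 3.00 and 2.33 FPKM in *Ntn1SPKO* libraries and at 1.36 to 2.26 FPKM in wild-type libraries (log2 difference 0.45, limma adjusted p=0.865). Its control libraries, at 1.95, 1.82 and 2.38 FPKM, overlapped with the mutant ones.

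Inside the cell, *Rras*, a GTPase that the GAP domain of plexins turns off, was at 8.90, 8.50 and 10.3 FPKM in *Ntn1SPKO* libraries against 12.4, 11.8 and 16.5 FPKM in control libraries (log2 difference −0.54, limma adjusted p=0.447), and wild-type libraries at 9.39 to 13.7 FPKM overlapped with both. *Dpysl2*, the collapsin response mediator that carries the Sema3a signal to microtubules, was at 109, 112 and 105 FPKM in *Ntn1SPKO* and 99.4, 100.5 and 95.9 FPKM in control libraries, with a log2 difference of 0.14 (limma adjusted p=0.447) and wild-type libraries at 89.1 to 107.8 FPKM. The lymphatic growth factors that share Nrp2 had differences of opposite sign from wild-type kidneys. *Vegfd* was at 6.80, 6.11 and 8.44 FPKM in *Ntn1SPKO* and 9.13 to 11.5 FPKM in wild-type libraries (log2 difference −0.54, limma adjusted p=0.378), while *Vegfc* was at 6.97, 6.72 and 7.79 FPKM and 5.32 to 6.52 FPKM (log2 difference 0.27, limma adjusted p=0.731). Neither passed the limits, and both overlapped with control libraries.

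**Figure D5:**
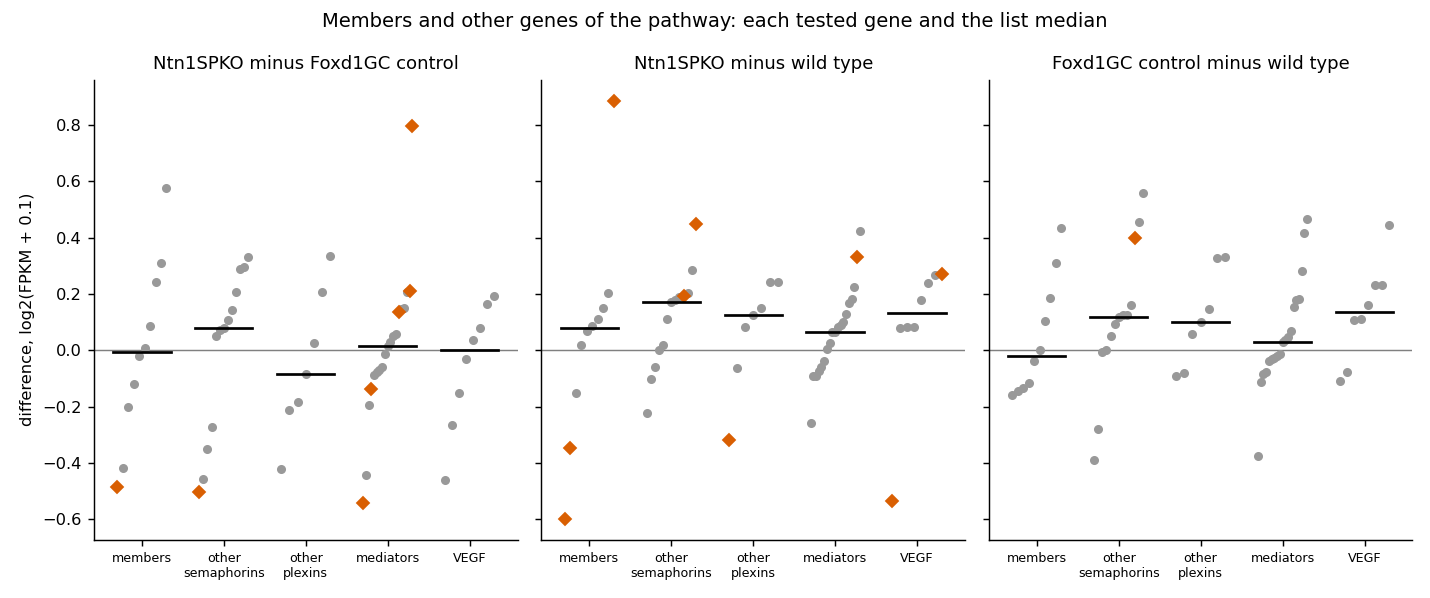
Difference between group means of log2(FPKM + 0.1) (vertical axis, log2 units) of the 10 members and of the tested genes of 4 lists of related genes, in the 3 comparisons. Each point is a gene, orange diamonds are genes whose groups do not overlap, and the black bar is the list median. List medians lie between −0.08 and 0.17, and *Sema3b* in the comparison with wild-type kidneys is the highest point at 0.89.

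Genes with the most similar profile over the 10 libraries were named for the members that varied most, by the root mean square difference of log2(FPKM + 0.1) after each gene was centred on its mean. For *Sema3b* these were *Art4* (0.23), *Parvb* (0.31) and *Gm12335* (0.34), where the median over 14533 genes was 0.58. For *Sema3e* they were *Prex2*, *Pkn3* and *Cyp2s1*, each at 0.12 to 0.13, with a median of 0.35 over the same genes. *Sema3a* was added after its values were seen, and its nearest profiles were *Mospd3* (0.12), *Hpse* (0.13) and *H2-Ab1* (0.13), with a median of 0.34. *Mospd3* was at 6.50 to 7.70 FPKM in *Ntn1SPKO* libraries and at 8.55 to 11.5 FPKM in the other 7. These are descriptions over 10 libraries that share depth and scaling, and no p is attached to them.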

How the data were processed

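RNA of whole E13.5 kidneys was sequenced in 10 libraries. The authors counted fragments with Salmon against the coding sequences of Ensembl GRCm38, read them with tximport and deposited FPKM for 35663 entries. The submitters' processing notes name bcl2fastq 2.17.1.14. The deposited FPKM were already on a common median-of-ratios scale. No counts were used, so the authors' DESeq2 fit was replaced by limma 3.58.1 (R 4.3.3, empirical Bayes with trend) on log2(FPKM + 0.1). Each pair of groups was fitted by itself on the genes whose mean there reached 0.5 FPKM, with Benjamini-Hochberg adjustment over all genes. Calls used the study's limits, 2-fold and an adjusted p below 0.1. Single values were tested by exact two-sided permutation (scipy 1.17.1). A fold on this scale understates the change of low genes. Depth was inferred from the steps between low values, on the scale of the deposited FPKM, and is rough. Members were taken by symbol, and related genes were named where groups did not overlap at an unadjusted p under 0.05. Profile neighbours were the 3 nearest of the 2 members with the largest SD. Members and lists were chosen with earlier results of these data known. Marker sums not given above were, over the lowest and highest library, 13.1 to 25.5 FPKM (neural), 20.4 to 103 FPKM (smooth muscle), 3157 to 13120 FPKM (erythroid), 2.47 to 26.6 FPKM (liver) and 0.263 to 1.40 FPKM (adrenal and gonad). Podocyte markers summed to 96.05 to 125.3 FPKM and Y-linked ones to 0.2105 to 98.1 FPKM. Nephron progenitor markers summed to 266.4 to 345.6 FPKM in control and 277.9 to 330.1 FPKM in *Ntn1SPKO* libraries. Alternatives were another pseudocount, no filter, quantile scaling, all libraries in 1 fit, sex as a covariate, a replicate block and leaving out each library.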

Additional observations from a re-analysis of the deposited data

Results flagged for a closer look

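*Nrp1* in wild-type replicate 3, at 46.48 FPKM, stood apart from the other 3 wild-type libraries at 52.8 to 54.0 FPKM, with a gap to the nearest of 0.84 of the group's range. It was the 1 value set apart among 28 quantities examined in the wild-type group, the only group of 4 libraries. These quantities are member levels and the shares, sums and ratios made from them, so they are not independent. Chance alone sets apart about 1 in 20 of independent quantities. Wild-type replicate 3 is also the wild-type library with Y-linked transcripts, so estimates against wild-type kidneys with sex as a covariate rest on it. Its FPKM over all entries summed to 1002638, where the other wild-type libraries had 795829 to 809645. Its median-of-ratios factor was 1.0018, the same as in the other libraries. It also had the lowest wild-type values of *Sema3e*, *Sema3f*, *Sema3g*, *Nrp2* and *Plxnd1*. The part of sex or of this larger sum in the *Nrp1* value was not tested.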

How the results depend on the processing

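Over all genes, limma called 8 genes between *Ntn1SPKO* and control kidneys, 0 with all 10 libraries in 1 fit (1598 at an unadjusted p under 0.05), 4 with sex as a covariate, 21 without the filter, 4 with the replicate block and 3 to 78 without 1 library (78 without control replicate 2). Against wild-type kidneys 7 were called, 0 with all 10 libraries (636 at an unadjusted p under 0.05), 187 with sex, 18 without the filter, 2 with a pseudocount of 1 and 1 to 20 without 1 library. Members called there numbered 0 to 1 without 1 library. Between control and wild-type kidneys 1 was called, 0 with all 10 libraries (1496 at an unadjusted p under 0.05), 9 without the filter, 2 with a pseudocount of 1 and 3 to 20 without 1 library.

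Of 30 member differences, 17 kept their sign in every alternative run, those of *Sema3a* among them. Signs reversed between *Ntn1SPKO* and control kidneys with sex as a covariate for *Sema3d* (0.115), *Sema3e* (−0.009), *Sema3f* (−0.087) and *Plxnd1* (−0.017), and with quantile scaling for *Sema3f* (−0.021) and *Sema3g* (0.022). Without 1 library *Sema3c* ran from −0.173 to 0.103 and *Sema3f* from −0.026 to 0.055. Against wild-type kidneys *Nrp2* was −0.020 with the replicate block, and without 1 library *Nrp2* ran from −0.058 to 0.122 and *Sema3g* from −0.069 to 0.152. Between control and wild-type kidneys, without 1 library, *Nrp1* ran from −0.050 to 0.050, *Sema3d* from −0.252 to 0.013, *Sema3c* from −0.254 to 0.021, *Sema3e* from −0.179 to 0.109, *Plxnd1* from −0.323 to 0.053 and *Ntn1* from −0.057 to 0.485. The cause was not tested.

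Libraries of the same replicate number deviated together with correlations of −0.039 to 0.078, which gives no sign that the numbers pair the samples. With so few libraries in a group, such correlations cannot exclude a pairing, for example by litter. With the replicate block *Sema3a* differed from wild-type kidneys by −0.610 (limma adjusted p=0.542). With a pseudocount of 1 its adjusted p was 0.137, and with all 10 libraries in 1 fit 0.192. Groups of 3 and 4 libraries limit what can be shown for members whose libraries vary widely. Counting error adds about 17.1% at the lowest value of *Sema3e* and 11.6% at that of *Sema3g*.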
